A study of Mus musculus with 24 samples.

Results

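The RNAs of 9 genes that carry or relay hormone signals in the mammary gland were followed in 24 mouse mammary tumors. These were the receptors Esr1, Pgr and Prlr, the transcription factors Gata3, Foxa1, Elf5 and Stat5a, the estrogen-induced coregulator Greb1, and Tnfsf11, which encodes the paracrine factor RANKL. They were chosen by name, as the array probes whose gene name in the files was one of these symbols, which gave 16 probes of 39429 and 9 genes of 30175. Female BALB/c mice had received the carcinogen 7,12-dimethylbenz[a]anthracene (DMBA) by mouth around puberty, in every group, and were fed a high-fat diet rich in animal fat (HFD) or a low-fat diet (LFD) from before puberty. Some kept their diet, and others were switched in young adulthood from LFD to HFD (LFD-HFD) or from HFD to LFD (HFD-LFD). The labels divide the tumors into early and late onset: 3 early HFD, 3 early HFD-LFD, 5 late LFD, 6 late HFD, 4 late LFD-HFD and 3 late HFD-LFD, which is 6 early against 18 late tumors. No early tumor came from an LFD or LFD-HFD mouse. Nothing in the labels says that each tumor came from a different mouse, so the p-values measure the spread between these tumors.

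In the mammary gland, estrogen receptor α (Esr1) and progesterone receptor (Pgr) are nuclear receptors found in a subset of luminal cells, the hormone-sensing cells. Foxa1 opens chromatin for the estrogen receptor, Gata3 specifies luminal identity, and progesterone makes the hormone-sensing cells release RANKL, which acts on their neighbors. Prolactin acts through its receptor (Prlr) and Stat5a, and Elf5 directs the alveolar luminal lineage that Stat5a drives to make milk. In breast cancer, Esr1, Pgr, Foxa1 and Gata3 are among the genes that separate luminal, hormone receptor-positive tumors from receptor-negative ones.

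To show what was hybridized, a 60-base probe within the coding sequence is given for each of the receptors. The Esr1 and Pgr probes lie in the part that encodes the hormone-binding domain, and the Prlr probe in the part that encodes the membrane-spanning stretch. They lie at chr10:5489352-5489411 on the minus strand, chr9:8961434-8961493 on the plus strand and chr15:10255629-10255688 on the plus strand of mm9. No base was singled out, so none is in capitals.
Esr1: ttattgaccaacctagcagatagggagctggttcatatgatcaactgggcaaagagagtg
Pgr: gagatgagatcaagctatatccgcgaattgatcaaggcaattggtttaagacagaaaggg
Prlr: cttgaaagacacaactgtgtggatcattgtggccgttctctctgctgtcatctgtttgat

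Each array held tumor RNA in Cy5 and a reference RNA pooled from 11 mouse cell lines in Cy3. A log2 ratio below is the tumor over the reference, and a log2 tumor-channel level is the normalized Cy5 signal alone. The study's methods name the opposite dye for the reference. The labels were followed, since Cy5 varied more between arrays (median SD over probes of 0.613, against 0.269 in Cy3) and was farther from the median array on 24 of 24 arrays. In Cy5, 66.1% to 89.2% of the probes on an array were well above background, and the number of arrays limits the precision. On 7 arrays, all of late tumors, 18.3% to 26.4% of spots lay in rows without Cy5 signal, and these spots were set missing. The epithelial markers Krt8, Krt18, Epcam, Cdh1, Krt5 and Krt14 were well above background on every array that measured them (13 to 24 arrays). Of the 16 probes, 11 passed the signal filter in both channels and 14 in the tumor channel, none was saturated, and the brightest probe stood for its gene. Pgr was not read as a ratio, because its reference signal was dim. It was read in the tumor channel.

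Early tumors had lower levels of most of these genes. Of the 8 genes read as a ratio, 6 were lower in early than in late tumors by limma (adjusted p under 0.05 over all genes): Prlr, Foxa1, Tnfsf11, Gata3, Stat5a and Esr1. With slide as a random block and its correlation estimated, Prlr and Gata3 passed, and the adjusted p of the other 4 lay between 0.0505 and 0.111. With the rows of lost Cy5, all in late tumors, kept as deposited, Prlr alone passed (adjusted p = 0.00257), and Esr1 (0.0513), Foxa1 (0.0566) and Tnfsf11 (0.0885) missed the threshold, as did Gata3 and Stat5a. None was higher. Over all 20911 genes tested, 16.3% were called, 9.91% as lower and 6.35% as higher in early tumors. In the tumor channel, 5 of all 9 genes were called, all lower, against 11.5% of 22423 genes, 4.73% of them as lower and 6.74% as higher. This count fell to 2 with slide as a random block (3.11% of all genes called) and to 2 with the lost rows kept. Foxa1 (limma, adjusted p = 0.0585) was not among the 5, and neither were Pgr, Elf5 and Greb1. In bulk tumor RNA, fewer cells of a type and less RNA per cell cannot be told apart.

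**Figure D1:**
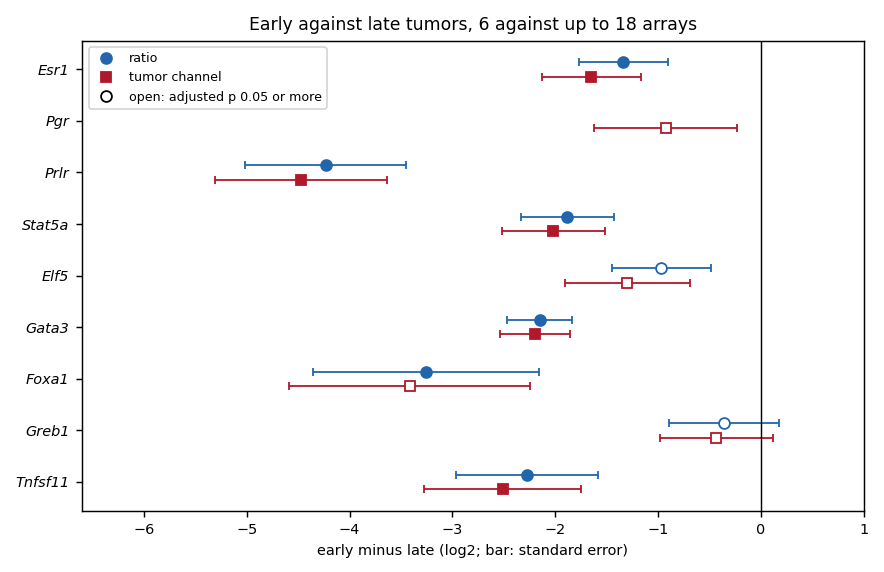
Difference between early and late tumors for each gene (log2, early minus late; bars, standard error) in the ratio (circles) and in the tumor channel (squares), with filled symbols for an adjusted p under 0.05. The differences lie below 0 for all 9 genes, from -4.47 for Prlr to -0.36 for Greb1, and those of Pgr, Elf5 and Greb1 are open.

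Esr1 was low in 5 of the 6 early tumors. The log2 ratios were 1.25, -0.04 and -0.09 in the early HFD tumors and -0.24, -0.09 and -0.01 in the early HFD-LFD tumors. In late tumors they ran from -0.83 (late HFD tumor 6) over a median of 1.71 to 2.90 (late LFD-HFD tumor 4). The ranges overlapped, and early HFD tumor 1 lay above 8 of the 18 late tumors. Early tumors averaged 0.13 ± 0.56 (SD, n = 6) and late tumors 1.47 ± 1.06 (SD, n = 18), a difference of -1.34 ± 0.44 (SE) by limma (adjusted p = 0.0381). With the log ratio of the scanner software it was -2.34 (adjusted p = 0.0373). On this probe the signal in all 3 early HFD-LFD tumors was not well above background, so no fold is given and the size of the difference is not exact. A second probe, the one printed above, was well above background on 22 of 24 arrays and differed by -0.69 ± 0.26 (limma, adjusted p = 0.0676 in the ratio and 0.0491 in the tumor channel). The other Esr1 probes were too dim to test.

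Pgr, which estrogen receptor induces, varied more within the late tumors than between early and late. Its log2 tumor-channel levels were 9.40, 8.42 and 7.65 in the early HFD tumors and 8.52, 9.39 and 9.41 in the early HFD-LFD tumors. The late tumors spread to both sides of these, from 6.35 (late HFD tumor 4, not well above background) and 6.77 (late LFD tumor 3) to 12.24 (late LFD-HFD tumor 3), with a median of 10.22 over the 14 tumors measured. The difference was -0.93 ± 0.70 (SE), which did not pass the test (limma, adjusted p = 0.418). A dimmer Pgr probe that was measured on all 24 arrays differed by -0.97 ± 0.42 (adjusted p = 0.130), and the one printed above by -0.81 ± 0.43 (adjusted p = 0.227).

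Prlr, the receptor for prolactin, had the largest difference of the 9 genes by the brightest probe of each. The early HFD tumors had log2 ratios of 3.00, -0.88 and -0.77, and the early HFD-LFD tumors -0.36, 0.26 and -0.48. The late tumors had 1.02 at the lowest, 5.12 at the median and 6.44 at the highest. Apart from early HFD tumor 1, every early tumor lay below each of the 16 late tumors measured. The difference was -4.23 ± 0.78 (SE) by limma (adjusted p = 0.00167), or 18.8-fold. The second probe, printed above and measured in all 24 tumors, gave -2.72 ± 0.62 (limma, adjusted p = 0.00611), smaller than the -3.25 of Foxa1.

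Stat5a, the transcription factor that the prolactin receptor activates, was lower in early tumors as well. Early HFD tumors had log2 ratios of 1.96, -1.15 and -0.61, and early HFD-LFD tumors -0.77, -0.32 and 0.15. Late tumors ran from -0.08 (late HFD tumor 6) and 0.20 (late HFD tumor 4) to 3.28 (late LFD-HFD tumor 1), with a median of 1.81 over 15 tumors. Early HFD tumor 1 lay above 8 of these. The difference was -1.88 ± 0.45 (SE) by limma (adjusted p = 0.00903), or 3.69-fold. With the rows of lost Cy5 kept, it was -1.12 and did not pass (adjusted p = 0.395).

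Elf5 did not pass the test. Its log2 ratios were 3.76, 1.46 and 1.84 in the early HFD tumors and 1.52, 2.16 and 2.53 in the early HFD-LFD tumors. Of the 14 late tumors measured, 13 lay between 2.58 and 4.23, and late HFD tumor 4 at -0.14 was lower than every early tumor. The difference was -0.97 ± 0.48 (limma, adjusted p = 0.167). Without late HFD tumor 4 it was -1.22 (adjusted p = 0.0133).

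Gata3 had the smallest adjusted p of these genes. Early tumors had log2 ratios of 2.25, -0.29 and -0.07 on HFD and 0.54, 1.08 and 0.80 on HFD-LFD, and the 14 late tumors measured had 1.98 to 3.63 with a median of 2.91. Early HFD tumor 1 lay within the range of the late tumors, above 3 of them, and the other early tumors lay below it. The difference was -2.15 ± 0.32 (SE) by limma (adjusted p = 0.000389), or 4.43-fold. With the rows of lost Cy5 kept as deposited, it was -0.93 and did not pass (adjusted p = 0.567).

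Foxa1 split the late tumors. Early HFD tumors had log2 ratios of 1.17, -1.74 and -1.17, and early HFD-LFD tumors -1.56, -0.84 and -2.06. Of the late tumors, 13 lay between 2.29 and 4.70, above every early tumor, while 5 lay at -3.09 (late HFD tumor 4, not well above background), -3.05 (late LFD tumor 3), -1.70 (late HFD tumor 6), -1.32 (late LFD tumor 4) and -0.20 (late HFD-LFD tumor 3). The first 2 of these lay below all early tumors. The difference of -3.25 ± 1.1 (SE) passed in the ratio (limma, adjusted p = 0.0449), but was lost when any 1 of 18 of the 24 tumors was left out. It was kept without any 1 of those 5 late tumors or without early HFD tumor 1, where the adjusted p lay between 0.0158 and 0.0415.

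Greb1, a target and partner of estrogen receptor, did not differ in a set direction. Early HFD tumors had log2 ratios of 2.18, 0.89 and 0.52, and early HFD-LFD tumors 1.93, 2.05 and 1.89. The late tumors held both the lowest value, -0.17 in late LFD tumor 3, and the highest, 3.51 in late HFD tumor 5. The difference was -0.36 ± 0.53 (limma, adjusted p = 0.671), and it was 0.02 with median centring in place of loess and 0.32 with the rows of lost Cy5 kept. A second probe, outside the lost rows and measured on 23 arrays, differed by -0.19 ± 0.36 (limma, adjusted p = 0.750).

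Tnfsf11 was near the floor of the array in all 6 early tumors. Its log2 ratios were -0.63, -0.11 and -0.50 on HFD and -0.51, -0.57 and -0.06 on HFD-LFD, and the tumor signal was well above background in 3 of the 6. The 14 late tumors measured ran from -0.65 (late HFD tumor 6) over a median of 2.42 to 4.12 (late HFD-LFD tumor 2), and 3 of them lay below the highest early tumor. The difference was -2.27 ± 0.69 (SE) by limma (adjusted p = 0.0305). No fold is given and the size is not exact, here or in later comparisons, because 3 of the 6 early signals were not well above background. With the log ratio of the scanner software the difference was -3.95 (limma, adjusted p = 0.0225). Unlike the other genes called, it was low in early HFD tumor 1.

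**Figure D2:**
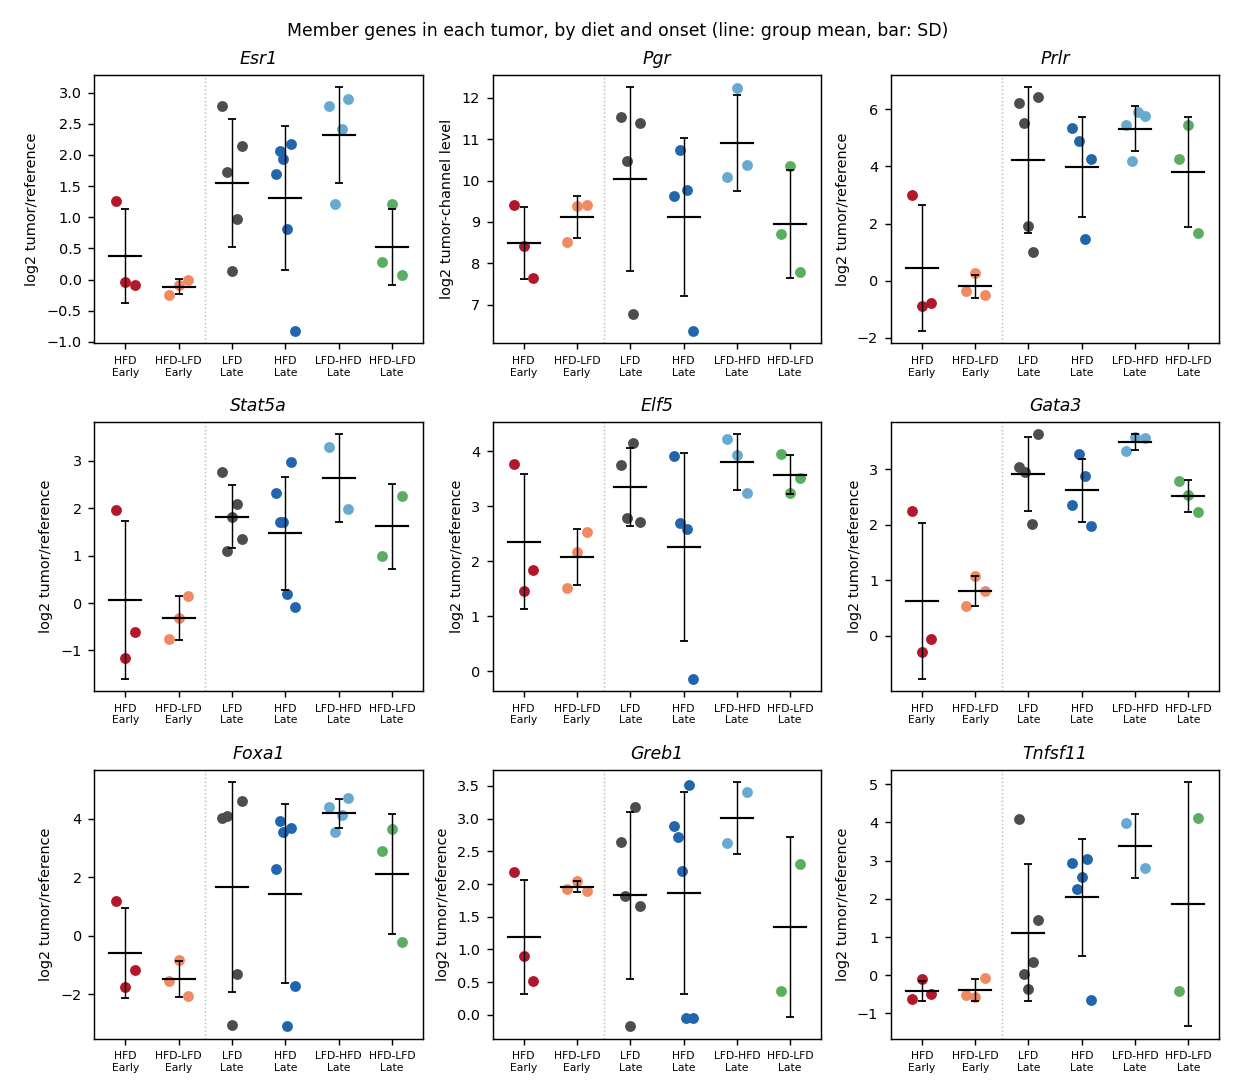
Log2 tumor/reference ratio of each gene, or for Pgr the log2 tumor-channel level, in each tumor by diet and onset (points, tumors; lines, group means; bars, SD). Early HFD tumor 1 is the highest early point for Esr1 (1.25) and Prlr (3.00), and late tumors separate into high and low ones for Foxa1, Prlr and Greb1.

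Early HFD tumor 1 was the highest of the early tumors in 7 of the 9 genes (all but Pgr and Tnfsf11). Without it, the difference was -4.81 for Prlr (adjusted p = 0.000678), -2.46 for Gata3 (adjusted p = 3.47e-05) and -2.30 for Stat5a (adjusted p = 0.00169) by limma, and Esr1 kept its call (adjusted p = 0.0279). Tnfsf11 passed no longer (adjusted p = 0.0581), which left 5 genes. Leaving out early HFD tumor 2 or 3, or early HFD-LFD tumor 1 or 2, left 3 genes. These counts are not set against the share of all genes called in the same fits. Over the 24 fits that left out 1 tumor each, Prlr, Gata3 and Stat5a were called in 24, Tnfsf11 in 19 and Esr1 in 16. Esr1 lost its call without early HFD tumor 2 or 3, any early HFD-LFD tumor, late HFD tumor 2, late LFD tumor 5 or late LFD-HFD tumor 3, with adjusted p between 0.0507 and 0.0835. Tnfsf11 lost its call without any early HFD tumor or without early HFD-LFD tumor 1 or 2, with adjusted p between 0.0516 and 0.0600.

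The arrays lay on 7 slides scanned in 3 sessions, and the slides were not balanced for onset. The early HFD tumors had a slide to themselves, and the early HFD-LFD tumors shared one with late LFD-HFD tumor 3 only. Within the first session (3 early, 8 late), the differences were -4.10 for Prlr, -2.62 for Foxa1, -2.27 for Tnfsf11, -2.13 for Gata3, -1.55 for Stat5a and -1.28 for Esr1, and Gata3 alone passed (limma, adjusted p = 0.0377), against 6.3% of all genes called in that fit. Within the second session (3 early, 3 late), they were -5.40 for Prlr, -5.03 for Foxa1, -2.16 for Gata3 and -2.05 for Stat5a. Esr1 and Tnfsf11 did not pass there, and no size is given, because the early signal was not well above background in 3 of 3 tumors for the brightest Esr1 probe and in 2 of 3 for Tnfsf11. Here Prlr, Foxa1, Gata3, Stat5a and Elf5 passed (adjusted p from 0.00387 to 0.0280), against 10.8% of all genes. The third session held late tumors only. With slide as a random block, Prlr (adjusted p = 0.0135) and Gata3 (0.00565) passed, Stat5a came to 0.0505, Tnfsf11 to 0.0920, Esr1 to 0.0999 and Foxa1 to 0.111, against 7.7% of all genes called. With slide as a fixed block, where the single shared slide carries the comparison, none passed by limma, against 0.375% of all genes.

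The comparison was repeated within each diet that had both onsets. Within HFD (3 early, up to 6 late), Gata3 was lower in early tumors, by -1.99 ± 0.49 (limma, adjusted p = 0.0170). It was the single gene of the 9 called, against 12% of all genes, 6.62% of them as lower. A count of 1 of 9 is near that share, so it does not set these genes apart from the rest. In the tumor channel Gata3 was the single gene called as well (limma, adjusted p = 0.0425), against 5.7% of all genes. This call was lost with slide as a random block (367 of 20900 genes called), and also with median centring and with the rows of lost Cy5 kept. Within the first session alone, Tnfsf11, which had no value in late HFD tumor 4, was called in its place. Prlr differed within HFD by -3.54 ± 1.31 (adjusted p = 0.0827), Tnfsf11 by -2.45 ± 1.04 (adjusted p = 0.130) and Elf5 by 0.09 ± 0.72. Leaving out early HFD tumor 2 or 3 left none called, and leaving out early HFD tumor 1 left 3 (Prlr, Gata3 and Stat5a). Leaving out late HFD tumor 4 or 6 left 2, Gata3 with Prlr or with Tnfsf11. Within HFD-LFD (3 early, up to 3 late), none of the 9 was called by limma, against 0.756% of all genes, 0.294% of them as lower. Of all 20774 genes tested, 3060 had an unadjusted p under 0.05, and so did 3 of the 9. These were Prlr (-3.99 ± 1.40, adjusted p = 0.190), Gata3 (-1.71 ± 0.52, adjusted p = 0.136) and Stat5a (-1.93 ± 0.89, adjusted p = 0.324). Without early HFD tumor 1, which bears here through the shared estimate of the spread, Gata3 was called. The calls within the first session and in the fits that left out a tumor are not set against the share of all genes called there.

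The early to late change was set against itself between these diets. None of the 9 genes differed in that change by limma, against 0.00963% of all genes called. None of the 9 had an unadjusted p under 0.05, against 1646 of 20764 genes in the ratio. The HFD change minus the HFD-LFD change was 0.45 ± 1.92 for Prlr, -0.28 ± 0.72 for Gata3 and 1.58 ± 2.53 for Foxa1. No value is given for Esr1, whose early HFD-LFD signals on the brightest probe were not well above background. The standard errors leave room for differences of several fold in each direction.

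Among the late tumors, the mean levels of the receptors ran from LFD-HFD over LFD and HFD to HFD-LFD by the brightest probes, but the groups overlapped. Esr1 averaged 2.32 ± 0.77 (SD, n = 4) in late LFD-HFD, 1.55 ± 1.03 (n = 5) in late LFD, 1.31 ± 1.16 (n = 6) in late HFD and 0.52 ± 0.61 (n = 3) in late HFD-LFD tumors, and below these came 0.38 ± 0.76 (n = 3) in early HFD and -0.11 ± 0.12 (n = 3) in early HFD-LFD tumors. Each step in this order was smaller than the larger SD of its pair. The early HFD-LFD value is not exact, because its signals on this probe were not well above background. Prlr averaged 5.32 ± 0.78 (n = 4), 4.23 ± 2.56 (n = 5), 3.99 ± 1.75 (n = 4) and 3.80 ± 1.93 (n = 3) in the same order of late groups, and then fell off to 0.45 ± 2.21 (n = 3) in early HFD and -0.19 ± 0.40 (n = 3) in early HFD-LFD tumors. That probe was not measured in 2 of the late HFD tumors, and by the second Prlr probe, measured in all, the last 2 late groups changed places, with 1.68 ± 1.48 (n = 6) in late HFD and 1.87 ± 1.57 (n = 3) in late HFD-LFD tumors. The tumor-channel level of Pgr averaged 10.91 ± 1.17 (n = 3) in late LFD-HFD, 10.04 ± 2.23 (n = 4) in late LFD, 9.12 ± 1.91 (n = 4) in late HFD and 8.95 ± 1.30 (n = 3) in late HFD-LFD tumors, and 9.11 ± 0.51 (n = 3) in early HFD-LFD and 8.49 ± 0.88 (n = 3) in early HFD tumors. Foxa1 was high in all 4 late LFD-HFD tumors (3.54 to 4.70), while each other late group held at least 1 low tumor.

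Across the 4 late diets, none of the 9 genes was called by the moderated F test of limma, against 1.78% of all genes. None had an unadjusted p under 0.05 in the ratio, against 4150 of 20811 genes, and Esr1 came nearest (adjusted p = 0.297). In the tumor channel, 1 of the 9, Esr1, had one (adjusted p = 0.204), against 4058 of 22321 genes. None was called there, against 0.824% of all genes. Between all HFD tumors (up to 9) and the LFD tumors (up to 5), none of the 9 was called and none had an unadjusted p under 0.05, against 0% of all genes called, of which 980 had an unadjusted p under 0.05. HFD minus LFD was -0.55 ± 0.55 for Esr1, -1.76 ± 1.36 for Prlr, -0.91 ± 1.55 for Foxa1, -1.14 ± 0.68 for Gata3 and, in the tumor channel, -1.18 ± 0.98 for Pgr. Early and late tumors are mixed on the HFD side of this comparison and not on the LFD side.

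**Figure D3:**
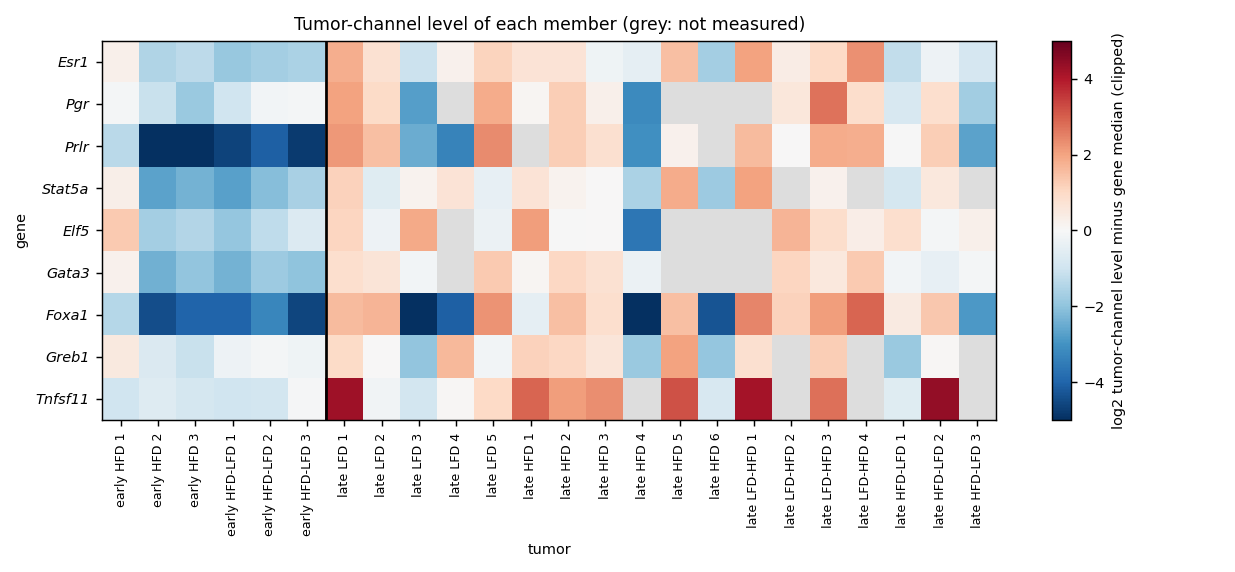
Log2 tumor-channel level of each gene in each tumor, as the difference from the gene's median over the tumors (red, higher; blue, lower; grey, not measured; early tumors left of the line), with colors clipped at the ends of the scale. The early tumors other than early HFD tumor 1 are blue for Prlr, Foxa1, Gata3 and Stat5a, and late LFD tumor 3, late HFD tumor 4 and late HFD tumor 6 are blue for several genes.

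The late tumors that were low in Foxa1 were low in Prlr as well, in each of those measured, but not in every gene. Prlr, measured in 4 of those 5, was at 1.93 in late LFD tumor 3, 1.02 in late LFD tumor 4, 1.45 in late HFD tumor 4 and 1.68 in late HFD-LFD tumor 3, and the other 12 late tumors lay between 4.19 and 6.44. In late HFD tumor 6, where that probe was not measured, the second Prlr probe read -0.48, the lowest of the late tumors. Greb1 was low in 4 late tumors, -0.17 in late LFD tumor 3, -0.05 in late HFD tumors 4 and 6 and 0.36 in late HFD-LFD tumor 1, but at 3.17 in late LFD tumor 4. Stat5a was at 2.08 in late LFD tumor 4 and 1.81 in late LFD tumor 3, not below the late median of 1.81. Elf5 did not go with Foxa1. Late LFD tumor 3, with a Foxa1 ratio of -3.05, had an Elf5 ratio of 4.15, above 12 of the other 13 late tumors, whereas late HFD tumor 4, with a Foxa1 ratio of -3.09, had the lowest Elf5 ratio.

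The other genes were set against Esr1 within the late tumors, so that a difference between early and late tumors does not enter into the coefficients. With 14 late tumors each, Gata3 (Pearson r = 0.745, Spearman rho = 0.776, permutation p = 0.00300 and 0.00174, adjusted over 8 genes 0.00343 and 0.00348) and Tnfsf11 (r = 0.780, rho = 0.692, permutation p = 0.000790 and 0.00755, adjusted 0.00158 and 0.0121) rose with Esr1. So did Stat5a over 15 tumors (r = 0.712, rho = 0.621, permutation p = 0.00286 and 0.0154, adjusted 0.00343 and 0.0176) and, in the tumor channel, Pgr over 14 (r = 0.743, rho = 0.811, permutation p = 0.00231 and 0.000670, adjusted 0.00343 and 0.00179). Without the 2 tumors farthest from the median of Esr1, r was 0.616 for Gata3, 0.664 for Tnfsf11, 0.652 for Stat5a and 0.843 for Pgr. With the rows of lost Cy5 kept, r came to 0.437 for Gata3 (permutation test, adjusted p = 0.110) and 0.210 for Stat5a (adjusted p = 0.404), which no longer passed, and to 0.616 for Pgr (adjusted p = 0.0179) and 0.578 for Tnfsf11 (adjusted p = 0.0317), which did. Over the tumors above the largest gap in the gene's own late values, given without a test, r was 0.110 for Tnfsf11 (rho = 0.133, 9 tumors), 0.539 for Gata3 (9 tumors), 0.524 for Stat5a (13 tumors) and 0.721 for Pgr (12 tumors). A division by the gene's own values narrows its range, which by itself lowers r. Within the first session, r was 0.802 for Gata3, 0.771 for Tnfsf11, 0.474 for Stat5a and 0.888 for Pgr over 7 or 8 tumors. Elf5 did not pass over 14 tumors (r = -0.0023, rho = -0.257, permutation p = 0.994 and 0.375, adjusted 0.994 and 0.375). Its largest gap, 0.623 of the range, set late HFD tumor 4 alone apart, and over the other 13 tumors r was -0.381 (rho = -0.407), without a test.

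Prlr, Foxa1 and Greb1 fell into a low and a high set of late tumors, so no pooled coefficient is given for them. The sets were divided at the same kind of gap, which took 0.319 to 0.418 of the range of these genes with at least 4 tumors below it, and less of the range of Tnfsf11 (0.235), so the coefficients within the high set are a description without a test. There, r with Esr1 was 0.619 (rho = 0.608) over 12 tumors for Prlr, 0.669 (rho = 0.769) over 13 for Foxa1 and 0.0567 (rho = 0.10) over 11 for Greb1. All arrays share the same reference RNA, and the ratios share its error.

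**Figure D4:**
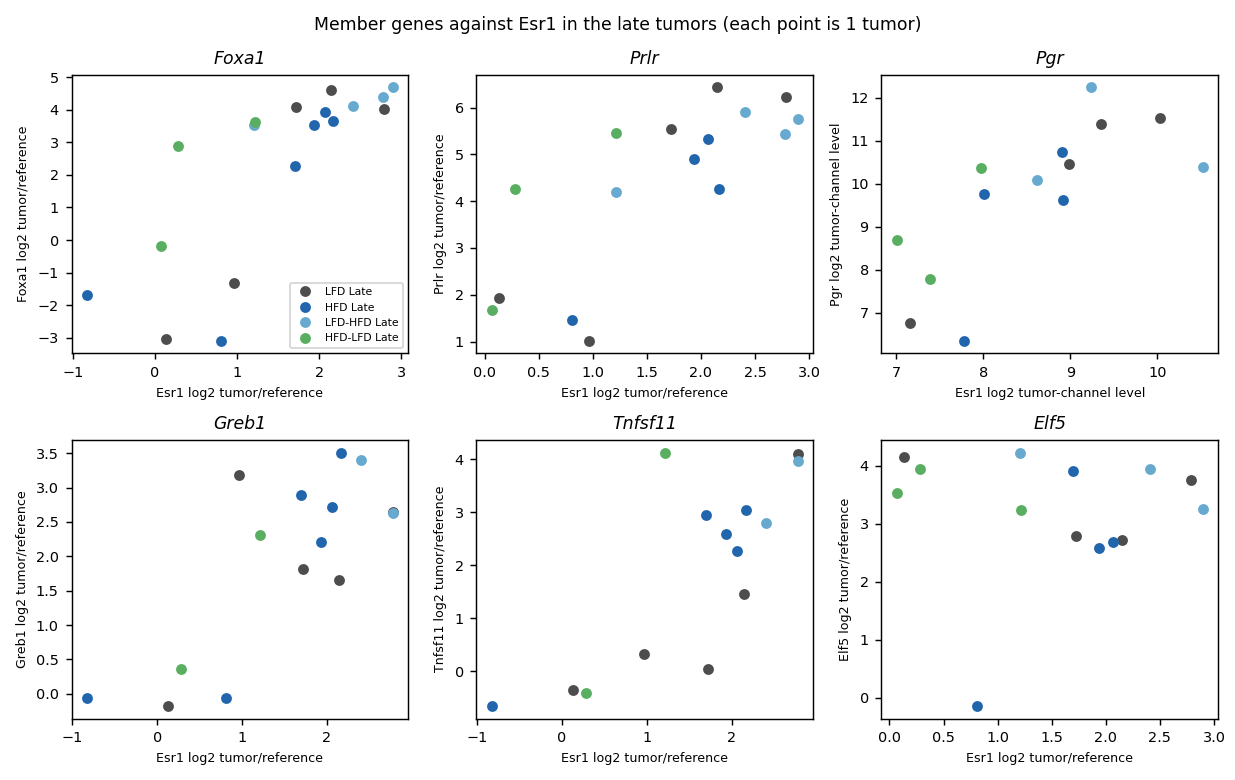
Foxa1, Prlr, Pgr, Greb1, Tnfsf11 and Elf5 (vertical axes) against Esr1 (horizontal axes) in the late tumors, as log2 ratios or, in the panel of Pgr, log2 tumor-channel levels, with 1 point for each tumor and colors for diet. Low points for Foxa1, Prlr and Greb1 lie apart from the rest, and r is -0.0023 for Elf5.

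The genes with the most similar pattern were sought by Pearson r of the log2 tumor-channel level over the arrays that measured both genes, at least 20, early and late tumors together, as a description without a test. For Esr1, over 19628 genes, they were Dnajb4 (r = 0.911 over 24 arrays), Cntnap2 (0.910), C030048H21Rik (0.903), E130308A19Rik (0.891) and Gipc2 (0.889). For Prlr, over 12300 genes, they were Rassf6 (0.977 over 22 arrays), Fer1l4 (0.973), Vill (0.969), Stc2 (0.961) and Gipc2 (0.957), so that Gipc2 stood in both sets. For Pgr, over 11395 genes and 20 arrays, they were D8Ertd82e (0.907), Slc2a4 (0.905), Mapk9 (0.896), Slco1a6 (0.884) and Spata6 (0.883). For Elf5, over the same 20 arrays, they were Dapk1 (0.898), Wnt5b (0.892), Ddo (0.885), Rab4a (0.881) and Gm5480 (0.878). The arrays behind each coefficient hold both onsets and share slides, so a difference between early and late tumors enters into it.

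The genes around these receptors were read from lists drawn up by role, to be set against the 9.91% of all genes that were lower in early tumors and the 6.35% that were higher. Of 21 estrogen-responsive genes, 5 were lower and 2 higher in early tumors, with a median difference of -0.40, against -0.05 over all genes. Lower by limma were Wisp2, a CCN-family growth regulator (-2.02 ± 0.41, adjusted p = 0.00324), Ret, a receptor tyrosine kinase (-1.59 ± 0.38, adjusted p = 0.00780), the chemokine Cxcl12 (-1.87 ± 0.53, adjusted p = 0.0191), the secreted glycoprotein Stc2 (-2.12 ± 0.67, adjusted p = 0.0355) and Areg, the EGF receptor ligand of pubertal duct growth (-1.92 ± 0.65, adjusted p = 0.0499). Higher were Rerg, a Ras-like growth inhibitor (1.36 ± 0.28, adjusted p = 0.00289), and the transcription factor Myb (2.18 ± 0.55, adjusted p = 0.0136). Wisp2, Ret and Cxcl12 were lower and Rerg and Myb higher in the tumor channel too, so the list held genes called in both directions on each scale.

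Of 10 genes of the progesterone and RANKL paracrine pathway, 2 were lower and 1 higher, with a median of -0.31. Tnfrsf11a, the receptor for RANKL, was lower by -1.01 ± 0.26 (limma, adjusted p = 0.0116), and Wnt4, the Wnt ligand that progesterone induces, by -2.04 ± 0.62 (adjusted p = 0.0285). Id4, an inhibitor of DNA binding that marks basal and stem-like cells, was higher by 2.93 ± 0.52 (adjusted p = 0.00171). Of 11 tested genes of prolactin and Stat5 signaling, Stat5b (-0.87 ± 0.21, adjusted p = 0.00768) and the feedback inhibitor Cish (-0.93 ± 0.25, adjusted p = 0.0142), itself a Stat5 target, were lower and none was higher, with a median of -0.43. Tnfrsf11a, Wnt4, Id4 and Stat5b were called in the tumor channel too, and Cish was not. Of 21 other hormone receptors and coregulators, the nuclear receptors Esrra, Rxra and Thra were lower, with differences from -0.63 to -0.37, and Igf1r, the receptor for insulin-like growth factor, was higher by 1.1 ± 0.26 (adjusted p = 0.00736), with a median of -0.11. The counts of this last list are near the shares over all genes. Those of the other lists here, at most 2 genes in each direction, are too small to be set apart from these shares. Thra was lower and Igf1r and Rxrb higher in the tumor channel.

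Of 11 markers of hormone-sensing luminal cells, 3 were lower and none higher, with a median of -1.04. They were the luminal transcription factor Spdef (-2.55 ± 0.66, adjusted p = 0.0128) with Wnt4 and Areg, which the lists above hold as well. Of 11 luminal progenitor markers, Mfge8, a milk fat globule protein, was lower (-2.48 ± 0.52, adjusted p = 0.00501), with a median of 0.01. Of 13 markers of luminal epithelium in general, Muc1, an apical mucin, was lower (-1.11 ± 0.27, adjusted p = 0.0101), with a median of -0.22. The counts of the luminal progenitor and general luminal lists are near the shares over all genes. That of the hormone-sensing list, 3 of 11, was not tested against these shares. Spdef, Wnt4 and Mfge8 were lower in the tumor channel too, and Areg and Muc1 were not called. Each of these values is a difference of log2 ratios with its SE from limma.

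Of 85 tested markers of other cell types, 8.24% were lower and 2.35% higher in early tumors, shares below those over all genes in the ratio. In the tumor channel, 7.06% were lower and 7.06% higher, against 4.73% and 6.74% over all genes there. The higher share is near that over all genes, and the lower one rests on 6 genes. Of 12 basal markers, Myh11, a smooth muscle myosin, was lower (-2.80) and Cdh3, P-cadherin, higher (1.40). Of 18 squamous differentiation genes, Sprr3 was lower (-0.96) and none higher, while the median was 1.23 and 15 of the 18 differences were above 0. In the tumor channel, Lor and Dsg3 of the squamous genes and Itgb4, Cdh3 and Lgals7 of the basal markers were higher, Myh11 was lower, and Sprr3 was not called. Lower in the ratio were 1 of 9 fibroblast markers (Dcn, -2.45), 1 of 9 adipocyte markers (Pparg, -1.04), 2 of 8 endothelial markers (Vwf, -2.65, and Flt1, -1.04) and 1 of 9 skeletal muscle markers (Mb, -1.49). Of 10 macrophage markers, Lyz2 was higher (0.68), and of 10 lymphocyte markers none was called by limma. In the tumor channel, Dcn, Vwf, Flt1, the macrophage marker Itgam and the T cell marker Cd3e were lower and Lyz2 was higher. Summed over the markers measured on every array, the log2 tumor-channel level ranged from 13.9 to 15.0 in early and 13.3 to 15.1 in late tumors for luminal epithelium, from 15.2 to 16.6 and 15.3 to 17.5 for basal epithelium, from 10.9 to 13.2 and 10.4 to 14.9 for squamous genes, and from 11.0 to 11.8 and 11.2 to 15.2 for endothelium. For fibroblasts it ranged from 11.0 to 12.6 and 10.8 to 13.0, for adipocytes from 11.7 to 12.5 and 10.7 to 14.02, and for macrophages from 12.5 to 13.5 and 12.7 to 14.5. The sums rest on few markers: 3 of 13 for luminal epithelium, 4 of 12 for basal epithelium, 3 of 18 for squamous genes and 3 of 8 for endothelium. For fibroblasts, adipocytes and macrophages they rest on 2 each, so no sum stands for its whole list. The ranges overlapped in each case, and the part of these cell types in the differences of the receptors and luminal regulators was not tested.

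The promoters of all 9 genes, 15 start sites in all, were searched in the 250 bases before each start (RefSeq, GRCm38.p6), on both strands, for the letters that the proteins of this group are known to bind. The estrogen response element, GGTCA and TGACC with 3 bases between them, was in none of the 15 and in 0.0639% of 32851 promoters, and AGATAA, read by GATA factors, was in none and in 9.99%. The forkhead letters TGTTTAC were in 2 of the 15 (Foxa1 and Prlr) and in 3.17% of all, and the Stat element TTCNNNGAA was in 2 (Esr1 and Prlr) and in 7.02%. The Prlr promoter that held both is shown because Prlr, by its brightest probe, differed most between early and late tumors. It lies at chr15:10223656-10223905 on the plus strand, with the forkhead letters at -215 and the Stat letters at -110 from the start site, and the matches are in capitals. A match is a description of the letters and not of binding.
Prlr: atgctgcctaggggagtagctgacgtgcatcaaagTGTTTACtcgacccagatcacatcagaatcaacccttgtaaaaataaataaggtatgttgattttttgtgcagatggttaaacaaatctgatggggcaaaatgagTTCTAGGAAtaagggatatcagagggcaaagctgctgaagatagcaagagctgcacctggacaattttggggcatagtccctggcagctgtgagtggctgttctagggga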

How the data were processed

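RNA of 24 DMBA-induced mammary tumors was measured on 2-color Agilent arrays. The deposited intensity columns give each spot's mean and its local background's median brightness in each dye, and a background-subtracted intensity, and the deposited log10 values are the scanner software's dye-normalized ratios of Cy5 over Cy3, used as an alternative. The submitters' processing notes name Agilent Feature Extraction 8.5.1.1 and the file headers 11.0.1.1. Probe positions are on mm9, per the file headers. The authors' own filter, normalization and imputation are not in these values.

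Signals were processed in R 4.3.3 with limma 3.58.1. Spots flagged as outliers (2.71% to 5.57% per array) and rows without Cy5 signal on 7 arrays were set missing and not imputed. A row was taken as lost by the Cy5 to Cy3 ratio of its bright spots: the lowest band of 10 rows lay at -5.44 to -7.25 (log2) on these arrays and at -0.27 or above on the other 17. Background was corrected by normexp (offset 50), ratios were normalized by loess, and tumor-channel levels by loess and Aquantile. Probes with a signal over 10 on 80% of the arrays that measured them, in both channels (27188 probes, 20913 genes) or in the tumor channel (29322 probes, 22425 genes), were kept, with the probe of highest mean intensity for each gene. Genes were named as in the files.

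Groups were compared with limma, Benjamini-Hochberg adjusted over all genes and called under 0.05, over 24 arrays, as contrasts of 6 group means for the diets, or over 14 arrays for HFD against LFD. Correlations used 100000 permutations, two-sided. The fits were tested on simulated data, and no result of those tests is used here. The lists' members are named in the text where called in early against late tumors, up to 4 of smallest p in each direction of each list. Areg, the fifth of the estrogen-responsive list, is named through the hormone-sensing list, and the genes called in the tumor channel were named after their values were seen. A contrast that the measured arrays of a gene could not estimate was given no value. The genes, lists and tests were chosen with earlier results of these data known. Alternatives covered the lost rows, imputation, background, normalization, filters, probe choice, array weights, slides, sessions and each tumor left out.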

Additional observations from a re-analysis of the deposited data

Results flagged for a closer look

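In 3 of 30 groups of 4 to 6 tumors, the highest or lowest tumor lay farther from the rest than Dixon's critical value allows (0.71 for 5 tumors and 0.625 for 6), and chance alone flags about 1 in 20 groups. Among the 6 early tumors, early HFD tumor 1 had an Esr1 log2 ratio of 1.25, with the nearest other tumor at -0.01, and a gap of 0.842 of the range. The same tumor had a Prlr log2 ratio of 3.00, with the nearest at 0.26 and a gap of 0.705 of the range. Among the 5 late HFD tumors with a value for Tnfsf11, late HFD tumor 6 had a log2 ratio of -0.65, with the nearest at 2.26 and a gap of 0.789 of the range.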

How the results depend on the processing

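No paired analysis was possible because the replicate numbers come from accession order and the labels tie no tumor of one group to a tumor of another. Of the 8 ratios, 6 were lower in early tumors. With the rows of lost Cy5 kept as deposited this count was 1 (2136 genes called in all, against 3399), with slide as a random block 2 (1611 genes), with slide as a fixed block 0 (75 genes) and within session 1 it was 1 (1317 genes). It was 5 to 7 under the other alternatives, among which array weights called 6308 genes. In the tumor channel the count of 5 became 2 with lost rows kept (1409 genes, against 2573), 2 with a random slide block (697), 0 with a fixed slide block (54) and 0 within session 1 (672). Within HFD the count of 1 became 0 with lost rows kept (1330 genes, against 2499), with median centring (3092) and with a random slide block (367), 2 with session as a fixed block (3395) and 7 with array weights (8028). Within HFD-LFD the count of 0 became 3 with array weights (2073 genes, against 157) and 3 within session 2 (1499). Between HFD and LFD, slide as a fixed block left 6 of the 9 genes with an estimate and none called, and Pgr, Gata3 and Elf5 had none because their arrays on the slide that holds both diets were lost. The pooled coefficient with Esr1 passed for 7 of 8 genes, and for 4 with lost rows kept (Gata3, Stat5a and Greb1 were lost). These counts include Prlr, Foxa1 and Greb1, whose late values fall into separate sets, so that a pooled coefficient is no measure of a relation for them. Greb1 changed sign with lost rows kept (0.32 in the ratio, 0.29 in the tumor channel), with median centring (0.024) and, in the tumor channel, within session 2 (0.0050). With 1 tumor left out at a time, the counts ranged from 3 to 7 in the ratio and in the tumor channel (3 also without early HFD-LFD tumor 3 in the tumor channel), from 0 to 3 within HFD and from 0 to 1 within HFD-LFD, and stayed at 0 for the difference between diets, the late diets and HFD against LFD. The ranges with 1 tumor left out are not set against the share of all genes, and the causes were not tested. A fixed slide block could not be fitted to the 6 groups, the scanner's ratio has no tumor channel of its own, and no session holds all groups of the late diets or of the difference.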
